A study of Mus musculus with 6 samples.

Results

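The unfolded protein response was examined in left ventricular myocardium of mice with heart failure with preserved ejection fraction (HFpEF) and of chow-fed controls. The 35 genes were listed by symbol, with their rows of the deposited expression table found through GENCODE gene names. All 35 had a row among the 54532 gene identifiers of the table. They comprise 6 sensors and effectors, 17 targets of Xbp1 and Atf6, 6 targets of the Perk-Atf4 branch, and 6 folding enzymes. For Ddit3 a second identifier of 105 exon bases, lying inside the main gene, was listed at 0 in every library and was not used.

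Male C57BL/6 mice, young adults at the start, were used. The HFpEF group received a high-fat diet (60% of kcal from fat) and, in the drinking water, 0.5 g/L of L-NAME, which blocks nitric oxide synthases, for 12 weeks. The Chow group received standard chow and regular water. Each group had 3 libraries, which the methods call biological replicates, and diet and L-NAME were always given together, so their effects cannot be told apart. Values are FPKM (fragments per kilobase of exon, scaled per library by a formula that was not stated), a scale that corrects for gene length.

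The endoplasmic reticulum folds secreted and membrane proteins, and the unfolded protein response adjusts its capacity to the load. Its sensor proteins sit in its membrane. Ern1 (Ire1) is a nuclease that splices the Xbp1 mRNA into the form that encodes an active transcription factor, Atf6 is released by proteolysis and acts as a transcription factor itself, and Eif2ak3 (Perk) phosphorylates the initiation factor subunit encoded by Eif2s1, which slows most translation and favors that of Atf4. In the heart the response is known from pressure overload and ischemia, and reduced Xbp1 splicing has been described in the high-fat diet and L-NAME model. Splicing, proteolysis and phosphorylation are not visible in gene-level FPKM, which sums all transcripts of a gene.

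The promoters of many of these genes carry an endoplasmic reticulum stress element (ERSE), the letters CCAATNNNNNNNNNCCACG, to which Atf6 and Xbp1 are known to bind together with the factor NF-Y. RefSeq promoter sequences (GRCm38.p6, 250 bases before to 50 after the transcription start) were matched by symbol for 31 of the 35 genes. An ERSE on either strand was found in 9 of these 31 genes (29.0%) and in 37 of all 27025 genes with a promoter sequence (0.137%). The 10 elements are shown because they mark the genes that the response is best known to drive. Each is printed 5′ to 3′ on the strand that reads CCAAT first, with the element in capitals and its flanks in lower case.
Hspa5 (chr2:34772020-34772048, plus strand): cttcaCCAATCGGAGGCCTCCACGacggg
Hsp90b1, far element (chr10:86705633-86705661, minus strand): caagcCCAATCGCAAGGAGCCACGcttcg
Hsp90b1, near element (chr10:86705528-86705556, plus strand): actcaCCAATCGTGCCTCACCACGcactc
Dnajc3 (chr14:118937822-118937850, plus strand): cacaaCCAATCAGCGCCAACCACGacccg
Creld2 (chr15:88819515-88819543, minus strand): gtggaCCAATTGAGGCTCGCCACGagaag
Syvn1 (chr19:6046527-6046555, plus strand): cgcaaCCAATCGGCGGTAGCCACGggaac
Derl3 (chr10:75893237-75893265, minus strand): gctagCCAATGGGGAAGTCCCACGgtaga
Calr (chr8:84847070-84847098, plus strand): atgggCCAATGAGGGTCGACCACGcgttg
Canx (chr11:50325795-50325823, minus strand): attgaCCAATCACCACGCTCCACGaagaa
Pdia6 (chr12:17266486-17266514, plus strand): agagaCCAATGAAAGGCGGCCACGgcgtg

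These elements began between 44 bases (Syvn1) and 212 bases (far element of Hsp90b1) before the transcription start. A related element, ERSE-II (ATTGG and CCACG, 1 base apart, on either strand), was present in 2 of the 31 genes (6.45%) and in 12 of 27025 (0.0444%). It is shown because the genes that hold it encode a degradation factor and a co-chaperone. Their log2 fold changes were −0.32 (Herpud1) and 0.23 (Dnajb11), neither past the test, and −0.0018 and 0.14 without HFpEF replicate 3.
Herpud1 (chr8:94386372-94386392, plus strand): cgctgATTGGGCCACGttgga
Dnajb11 (chr16:22857847-22857867, plus strand): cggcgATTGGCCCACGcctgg
The letters TGACGTGG, an Xbp1-type element, and TGATGNAAT, an Atf4-type element, were found on neither strand of the 31 windows, against 0.714% and 1.08% of all genes. A match describes the letters in these windows only, and neither binding nor its absence was measured.

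Recovered reads numbered 13075465 to 15572774 per Chow library and 13459625 to 16024518 per HFpEF library, computed from FPKM and GENCODE M21 exon lengths. HFpEF replicate 3 stood apart from the other libraries. It lay at 75.5 on the first principal component (42.3% of the variance), where HFpEF replicates 1 and 2 lay at 11.6 and 12.7 and the Chow libraries between −35.8 and −31.7. Mitochondrially encoded genes held 7.18% of its reads, against 20.1% and 22.6% in the other HFpEF libraries and 24.0% to 26.0% in Chow. Fold changes of the listed genes and their medians by role are therefore given with and without it, and other values where stated. Ventricular cardiomyocyte markers (Myh6, Myl2, Actc1 and 7 others) were present in every library, with a summed FPKM of 19851 to 21162 in Chow and 9167 to 14355 in HFpEF. Atrial cardiomyocyte markers also separated the libraries, although the methods name the left ventricle and the labels the heart. From replicate 1 to 3, their FPKM summed to 14.2, 16.8 and 548 for Chow and to 2601, 3909 and 61.2 for HFpEF. Myl7, the atrial myosin light chain gene, reached 975 in HFpEF replicate 1, 2073 in HFpEF replicate 2 and 237 in Chow replicate 3, and at most 8.60 in the other libraries. HFpEF replicates 1 and 2 therefore also differed from most Chow libraries in a marker list. In bulk tissue, fewer cells of a type and less RNA per cell cannot be told apart.

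Several genes had higher FPKM in HFpEF hearts than in Chow hearts, at fitted folds of 1.26 to 1.87 and an unadjusted p under 0.05 (limma). They were the ER co-chaperone genes Dnajc3 and Sdf2l1, the secreted ER protein gene Creld2, the folding enzyme gene Pdia4, and the transcription factor genes Xbp1 and Ddit3. The central chaperone gene Hspa5 had overlapping levels in the groups, and the sensor gene Atf6 had lower values in every HFpEF library. None of these differences passed the adjusted p of 0.05 when all 6 libraries were used. The test was limma on log2(FPKM + 0.1), with Benjamini-Hochberg adjustment over 14227 genes. Of the 35 genes, 34 were tested, each with FPKM above 0.5 in all 6 libraries, and Derl3 fell short of the FPKM minimum. The lowest adjusted p among the 34 was 0.115 (limma), and over all genes 14 (0.0984%) passed an adjusted p under 0.05. With the fold threshold that the study added, a log2 change of 2 or more in size, the 34 genes held 0 and all genes held 8 (0.0562%).

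At an unadjusted p under 0.05, 6 of the 34 genes (17.6%) were higher in HFpEF, against 10.2% of all genes tested, and 0 were lower, against 13.1%. Every HFpEF library lay above every Chow library for 9 genes (26.5%; 15.6% of all genes tested), and below for 3 genes (8.82%; 19.7% of all genes tested). The median log2 fold change was 0.22 over the 34 genes and −0.012 over all genes tested. By role it was 0.25 for the sensors and effectors, 0.13 for the Xbp1 and Atf6 targets, 0.20 for the Perk-Atf4 targets and 0.33 for the folding enzymes. Without HFpEF replicate 3 these role medians were 0.12, 0.055, 0.12 and 0.033, so that the folding enzymes went from the highest to the lowest. The median over the 34 genes was then 0.097, with 5 genes higher (14.7%) at an unadjusted p under 0.05, against 10.2% of all genes. In that comparison 2 genes (5.88%), Dnajc3 and Creld2, passed an adjusted p of 0.05, a smaller share than the 8.35% of all genes tested.

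**Figure D1:**
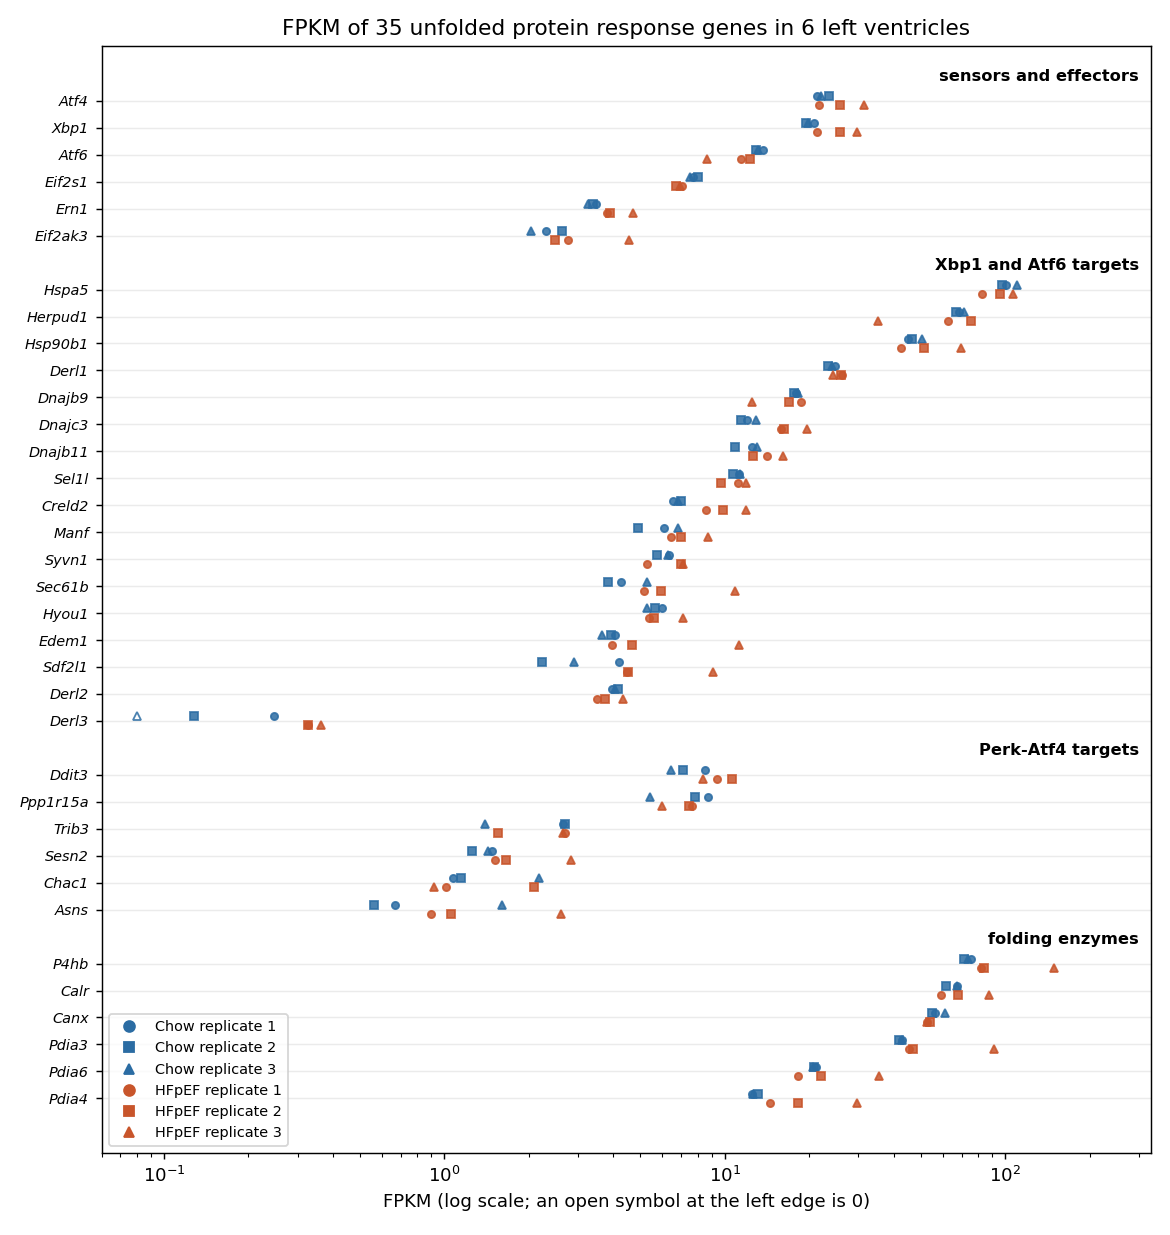
FPKM on a log axis for each of the 35 genes in each library, grouped by role and ordered by mean level, with Chow in blue above HFpEF in orange and 1 symbol per replicate. Hspa5 and P4hb sit at the top of their groups near 100, while Derl3 stays under 0.4, and in many rows the HFpEF replicate 3 triangle lies apart from the other points.

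The levels spanned over 2 orders of magnitude. By mean FPKM per gene, which is corrected for length, Hspa5 (103 in Chow), P4hb (73.6), Herpud1 (68.9) and Calr (65.4) were the most abundant, while Asns (0.944) and Derl3 (0.125) were the least. Among the sensors, Atf6 was the most abundant in Chow at an FPKM of 13.3 ± 0.403 (SD, n = 3), followed by Ern1 at 3.37 ± 0.115 and Eif2ak3 at 2.32 ± 0.294. The lowest Ern1 library (3.26) was above the highest Eif2ak3 library (2.63) in Chow, so this order held in every Chow library.

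Among the sensors, Ern1 (ENSMUSG00000020715) had an FPKM of 3.49, 3.38 and 3.26 in Chow (here and throughout in the order of replicates 1 to 3) and 3.80, 3.89 and 4.72 in HFpEF. The HFpEF values all exceeded the Chow values, with replicate 3 highest. Its log2 fold change came to 0.28 (standard error 0.13, 95% interval −0.023 to 0.58, adjusted p = 0.239 from limma), and 0.18 without HFpEF replicate 3. Its substrate Xbp1 (ENSMUSG00000020484, chromosome 11 from 5520659 to 5525893) had an FPKM of 20.8, 19.5 and 19.8 in Chow and 21.3, 25.7 and 29.6 in HFpEF. The groups did not overlap, although HFpEF replicate 1 lay only just above the top of the Chow range. The log2 fold change of Xbp1 was 0.33 (standard error 0.14, unadjusted p = 0.0477, adjusted p = 0.210 from limma), and 0.22 without HFpEF replicate 3.

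Atf6 (ENSMUSG00000026663) had an FPKM of 13.7, 12.9 and 13.2 in Chow and 11.4, 12.3 and 8.63 in HFpEF. All HFpEF values were below all Chow values, and replicate 3 was lowest. Means ± SD (n = 3 each) were 13.3 ± 0.403 for Chow and 10.8 ± 1.91 for HFpEF, with a log2 fold change of −0.31 (95% interval −0.67 to 0.036, adjusted p = 0.249 from limma). Without HFpEF replicate 3 it was −0.16.

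Eif2ak3, which encodes Perk, had an FPKM of 2.30, 2.63 and 2.04 in Chow and 2.76, 2.48 and 4.57 in HFpEF. Its exons share 8.05% of their bases with another annotated gene on the opposite strand. The groups overlapped, because HFpEF replicate 2 lay within the Chow range while replicate 3 was well above it (log2 fold change 0.43, and 0.17 without replicate 3). Its substrate gene Eif2s1 had an FPKM of 7.69, 8.02 and 7.50 in Chow and 7.04, 6.72 and 6.93 in HFpEF. All HFpEF values were lower and close to each other, with a log2 fold change of −0.16 (standard error 0.089, adjusted p = 0.306 from limma), and −0.17 without replicate 3. Atf4, the factor whose translation Perk favors, had an FPKM of 21.4, 23.5 and 22.1 in Chow and 21.7, 25.8 and 31.4 in HFpEF. Its groups overlapped (log2 fold change 0.22, 95% interval −0.14 to 0.58, and 0.082 without HFpEF replicate 3). For each of these 6 genes, the exact two-sided permutation test of FPKM gave a p of 0.1 (Ern1, Xbp1, Atf6 and Eif2s1), 0.2 (Eif2ak3) or 0.3 (Atf4), and 0.1 is the smallest p that 3 mice against 3 allow.

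**Figure D2:**
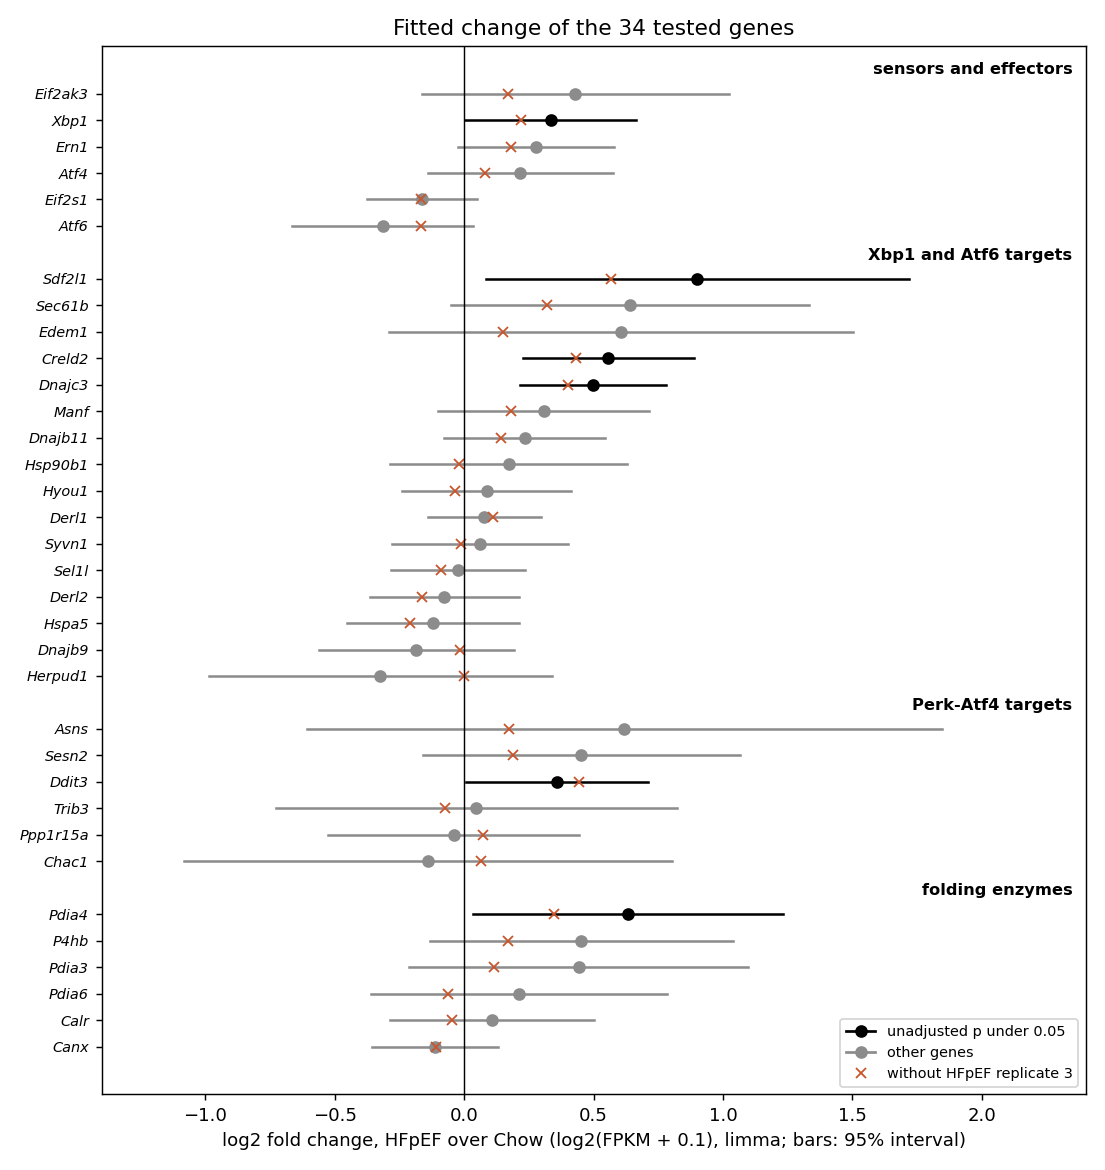
Fitted log2 fold change (HFpEF over Chow) of the 34 tested genes, with 95% intervals from limma; black marks an unadjusted p under 0.05 and crosses give the value without HFpEF replicate 3. The intervals of Sdf2l1, Creld2, Dnajc3, Xbp1, Ddit3 and Pdia4 lie above 0, and most crosses sit closer to 0 than the points.

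Among the Xbp1 and Atf6 targets, Dnajc3 and Creld2 showed the clearest separation. Dnajc3 (ENSMUSG00000022136, chromosome 14 from 118937976 to 118981697) encodes p58IPK, an ER co-chaperone of Hspa5 that is also known as an inhibitor of Perk. Its FPKM was 12.0, 11.4 and 12.9 in Chow and 15.9, 16.2 and 19.6 in HFpEF, so the lowest HFpEF library exceeded the highest Chow library by more than the Chow SD of 0.744. Its log2 fold change reached 0.50 (standard error 0.12, 95% interval 0.22 to 0.78), equal to a fitted fold of 1.41, with an unadjusted p of 0.00437 and an adjusted p of 0.115 (limma). Without HFpEF replicate 3 the log2 fold change was 0.40 and the adjusted p 0.0379 (limma).

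Creld2 (ENSMUSG00000023272, chromosome 15 from 88819646 to 88826683) encodes a secreted ER stress-inducible protein with disulfide isomerase activity. Its FPKM was 6.53, 6.99 and 6.84 in Chow and 8.56, 9.89 and 11.9 in HFpEF. The Chow libraries lay within a narrow range and each HFpEF library was above it. On the log2 scale the change was 0.56 (standard error 0.14, 95% interval 0.23 to 0.89), with an unadjusted p of 0.00562 and an adjusted p of 0.119 (limma). Without HFpEF replicate 3 it was 0.43 with an adjusted p of 0.0494 (limma).

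Sdf2l1, which encodes a partner of the Hspa5 chaperone complex, had the largest fitted change of the 34 genes. Its FPKM was 4.18, 2.23 and 2.91 in Chow and 4.50, 4.53 and 9.11 in HFpEF. Replicate 3 was far above the other HFpEF libraries, and the highest Chow library came close to the lowest HFpEF library. The values rested on 29 to 66 reads in Chow and 69 to 195 in HFpEF. The log2 fold change was 0.90 (standard error 0.34, unadjusted p = 0.0354, adjusted p = 0.189 from limma) and 0.57 without HFpEF replicate 3.

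Hspa5 (ENSMUSG00000026864, chromosome 2 from 34771970 to 34777547) encodes BiP, the main ER chaperone, and is the usual transcript marker of the response. Its FPKM was 101, 97.4 and 110.1 in Chow and 82.5, 95.8 and 107 in HFpEF. The groups overlapped and the HFpEF mean was the lower one. Its fitted log2 change was −0.12 (SE 0.14, adjusted p = 0.614 from limma). Its 95% interval of −0.45 to 0.21 corresponds to folds of 0.731 to 1.16. The log2 value was −0.21 without HFpEF replicate 3.

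The other chaperone genes of this class also had overlapping groups. Hsp90b1 (Grp94) had a log2 fold change of 0.17, Hyou1 (Grp170) 0.09, Dnajb11 0.23, the secreted ER protein gene Manf 0.31 and the co-chaperone gene Dnajb9 −0.18. In the same order, these values were −0.021, −0.036, 0.14, 0.18 and −0.017 without HFpEF replicate 3. The exons of Hsp90b1 overlap other annotated genes over 10.3% of their bases on the opposite strand and 5.38% on the same strand. For Manf the opposite-strand share is 8.85%. Reads there could be assigned differently with another counting of strand or of shared bases.

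Genes of ER-associated degradation, which returns misfolded proteins to the cytosol for the proteasome, varied among themselves. Sel1l and Syvn1, the core of the ubiquitin ligase complex, had log2 fold changes of −0.02 and 0.06, with 95% intervals of −0.28 to 0.24 and −0.28 to 0.40. The channel genes Derl1 and Derl2 had 0.08 and −0.08. Sel1l, Syvn1, Derl1 and Derl2 had −0.089, −0.012, 0.11 and −0.16 without HFpEF replicate 3. Edem1, which encodes a lectin that recognizes misfolded glycoproteins, had an FPKM of 3.64 to 4.05 in Chow and 3.96, 4.68 and 11.3 in HFpEF, so its mean difference rested on replicate 3 (log2 fold change 0.61, and 0.15 without that library). Herpud1, a ligase complex adaptor, had the opposite pattern, with 66.9 to 71.5 in Chow and 62.8, 75.6 and 35.2 in HFpEF (log2 fold change −0.32, and −0.0018 without replicate 3). Sec61b, a subunit of the translocation channel, had 3.82 to 5.27 in Chow and 5.17, 5.94 and 10.9 in HFpEF (log2 fold change 0.64, and 0.32 without replicate 3). Derl3 was near the detection limit, with 7, 3 and 0 reads in Chow and 9, 11 and 14 in HFpEF, and was not tested.

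The 8 tested genes with an ERSE had log2 fold changes from −0.12 (Hspa5) to 0.56 (Creld2), with a median of 0.14 and 6 above 0. The 22 tested genes without one in the window had −0.32 (Herpud1) to 0.90 (Sdf2l1), with a median of 0.31 and 15 above 0. Without HFpEF replicate 3, the ERSE genes Dnajc3 and Creld2 had 0.40 and 0.43. Hspa5, Canx, Pdia6, Calr, Hsp90b1 and Syvn1 then had −0.21, −0.11, −0.061, −0.048, −0.021 and −0.012, all below 0. The medians of the sets with and without an ERSE were not computed without that library. Among the 8 tested ERSE genes, Dnajc3 and Creld2 lay above Chow in every HFpEF library, and Canx below. Hspa5, Hsp90b1, Calr, Pdia6 and Syvn1, which also hold an ERSE, had overlapping groups. Derl3, an ERSE gene too low to test, also lay above Chow. Of the 22 tested genes without an ERSE, 7 lay wholly above Chow and 1 wholly below. Over all genes tested, 15.6% lay wholly above, 19.7% lay wholly below and 48.8% had a log2 fold change above 0. The difference between the genes with and without an ERSE was not tested.

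**Figure D3:**
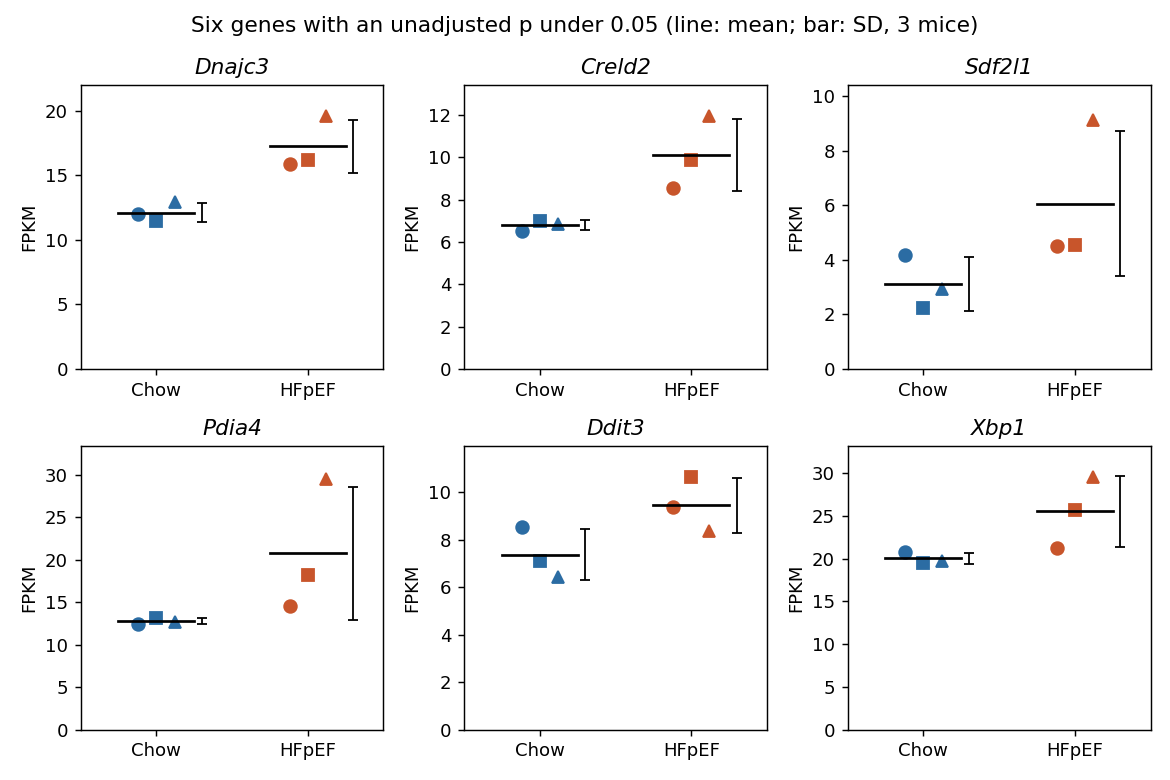
FPKM (axis from 0) of the 6 genes with an unadjusted p under 0.05, with 1 symbol per mouse (circle, square and triangle for replicates 1, 2 and 3), the mean as a line and the SD as a bar. Dnajc3 and Creld2 separate clearly between groups, and Ddit3 overlaps between groups. The highest point is HFpEF replicate 3 for every gene but Ddit3.

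Among the Perk-Atf4 targets, Ddit3 (ENSMUSG00000025408, chromosome 10 from 127290774 to 127296288), which encodes the pro-apoptotic factor Chop, had an FPKM of 8.53, 7.11 and 6.42 in Chow and 9.36, 10.6 and 8.34 in HFpEF. The groups overlapped, with HFpEF replicate 3 below the highest Chow library. Its log2 fold change was 0.36 (standard error 0.15, unadjusted p = 0.0472, adjusted p = 0.210 from limma). Unlike the other genes with an unadjusted p under 0.05, Ddit3 had a larger value without HFpEF replicate 3, at 0.44. Its exons share 4.73% of their bases with other genes on the opposite strand and 6.13% on the same strand.

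The other 5 targets of this branch had mean FPKM in Chow from 0.944 (Asns) to 7.31 (Ppp1r15a). Sesn2, which encodes a stress-inducible regulator of mTORC1, had an FPKM of 1.25 to 1.48 in Chow and 1.52, 1.66 and 2.83 in HFpEF, without overlap (log2 fold change 0.45, adjusted p = 0.320 from limma, and 0.19 without replicate 3). Asns, for asparagine synthetase, had 0.561 to 1.60 in Chow and 0.898 to 2.61 in HFpEF, with a log2 fold change of 0.62 (95% interval −0.61 to 1.84), and 0.17 without replicate 3. Chac1, for a glutathione-degrading enzyme, had −0.14, Trib3, for a pseudokinase induced by Atf4 and Chop, 0.05, and Ppp1r15a, for the phosphatase subunit Gadd34 that reverses the block on translation, −0.04. These 3 values were 0.066, −0.073 and 0.072 without HFpEF replicate 3, each of the opposite sign. The intervals of Trib3 (−0.73 to 0.82) and Chac1 (−1.08 to 0.80) span changes in either direction that these libraries cannot resolve.

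Among the folding enzymes, Pdia4 (ENSMUSG00000025823), a protein disulfide isomerase gene, had an FPKM of 12.5, 13.1 and 12.6 in Chow and 14.5, 18.3 and 29.5 in HFpEF. Every HFpEF library was above the narrow Chow range, and replicate 3 was highest. The log2 fold change was 0.63 (standard error 0.25, unadjusted p = 0.0411, adjusted p = 0.200 from limma) and 0.35 without replicate 3. P4hb (ENSMUSG00000025130) encodes protein disulfide isomerase, which also serves as the beta subunit of the collagen prolyl hydroxylase. Its FPKM was 75.8, 71.3 and 73.8 in Chow and 82.0, 83.9 and 149 in HFpEF, again without overlap. Its log2 fold change was 0.45 (95% interval −0.13 to 1.04, adjusted p = 0.302 from limma) and 0.17 without replicate 3.

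Pdia3, the isomerase that works on glycoproteins with calnexin and calreticulin, had 41.7 to 43.0 in Chow and 45.4, 46.9 and 91.3 in HFpEF, without overlap (log2 fold change 0.44, and 0.11 without replicate 3). Pdia6 had 20.6 to 21.1 in Chow and 18.2, 22.0 and 35.5 in HFpEF, with overlap (0.21, and −0.061 without replicate 3). Calr, for the lectin chaperone calreticulin, had 61.7 to 67.3 in Chow and 59.2, 67.6 and 87.5 in HFpEF, again with overlap (0.11, and −0.048 without replicate 3). Canx, for the lectin chaperone calnexin, had 54.7 to 61.1 in Chow and 52.5, 53.9 and 52.5 in HFpEF, with all HFpEF libraries below all Chow libraries (log2 fold change −0.11 with and without replicate 3, adjusted p = 0.515 from limma).

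**Figure D4:**
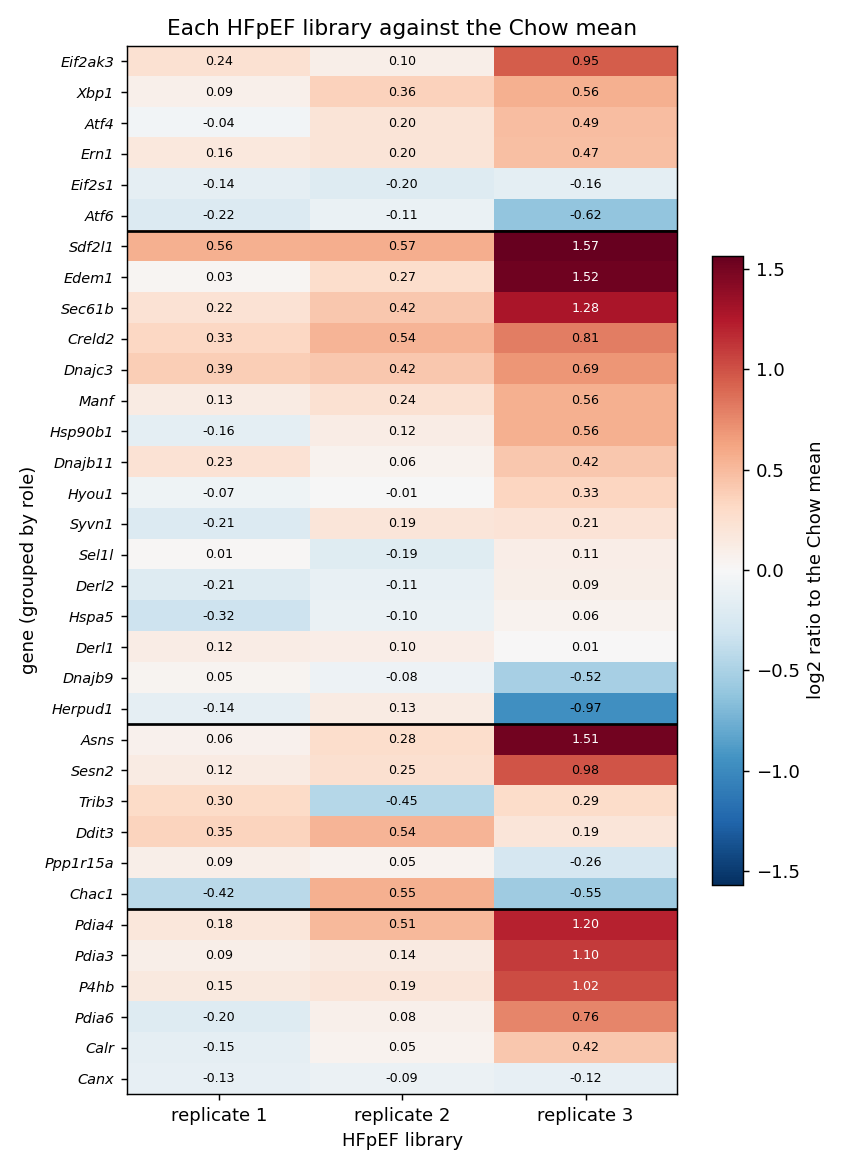
Log2 ratio of each HFpEF library to the Chow mean, on log2(FPKM + 0.1), for the 34 tested genes grouped by role and ordered within a role by replicate 3; red is above and blue below the Chow mean. Replicate 3 holds the strongest colors, from 1.57 for Sdf2l1 to −0.97 for Herpud1, while Dnajc3 and Creld2 are above 0.3 in all 3 libraries.

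The HFpEF libraries contributed unequally. Relative to the Chow mean, the 34 genes had a median log2 ratio of 0.075, 0.14 and 0.45 for HFpEF replicates 1, 2 and 3. For the folding enzymes it was −0.020, 0.11 and 0.89, and for the Xbp1 and Atf6 targets 0.039, 0.13 and 0.37. For the Perk-Atf4 targets it was 0.11, 0.27 and 0.24, with replicate 3 below replicate 2, although Asns and Sesn2 were highest in replicate 3. HFpEF replicate 3 was the highest of the 6 libraries for 23 of the 34 genes (67.6%), against 30.5% of all genes tested. It was the lowest for 4 genes (11.8%), against 34.6% of all genes tested, which were Atf6, Dnajb9, Herpud1 and Chac1.

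Marker lists of other cell types differed between libraries in several ways. Of 10 fibroblast markers, 9 were above Chow in every HFpEF library, and their summed FPKM was 249.5 to 295 in Chow and 499.8, 570.4 and 5645 in HFpEF replicates 1, 2 and 3. Col1a1, which encodes a chain of type I collagen, had an FPKM of 24.9 to 27.2 in Chow and 54.0, 87.2 and 2252 in HFpEF. Plasma cell markers, from a cell type known for high Xbp1 activity, summed to 15.5 to 21.2 in Chow and 20.1, 252 and 51.0 in HFpEF, with 2 of 9 above Chow in every HFpEF library and none at 0 in all libraries of either group. The immunoglobulin genes Igkc (152) and Ighm (83.0) held most of the sum in HFpEF replicate 2. Macrophage markers summed to 235 to 297 in Chow and 292, 396 and 959 in HFpEF. All 10 ventricular cardiomyocyte markers were below Chow in every HFpEF library. Endothelial markers summed to 239 to 267 in Chow and 206, 199 and 203 in HFpEF, with 4 of 8 below Chow in every HFpEF library. Of 10 adipocyte markers, 7 were above Chow in every HFpEF library, among them Adipoq, Cidec, Cfd, Lep and Retn, which were at 0 in every Chow library. Pnpla2, a lipase gene that cardiomyocytes also express, was below Chow in every HFpEF library, and the groups of Plin4 and Lipe overlapped. The adipocyte sum was 168 to 172 in Chow and 242, 239 and 126 in HFpEF. The part of these cell types in the values of the 34 genes was not tested. With HFpEF replicate 1 left out, the log2 fold change was 0.55 for Dnajc3 and 0.67 for Creld2. With HFpEF replicate 2 left out, it was 0.54 and 0.57. The adjusted p (limma) of both genes then lay between 0.12 and 0.14. HFpEF replicates 1 and 2 both had high atrial sums, and each of these fits kept the other of them as well as replicate 3. These fits therefore do not test cell content.

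The response was also followed through 140 tested genes of the same pathways outside the 35. At an unadjusted p under 0.05, 23 were higher (16.4%, against 10.2% of all genes tested) and 9 lower (6.43%, against 13.1%), and 0 passed an adjusted p of 0.05 (limma). Without HFpEF replicate 3, 10 passed it (7.14%), against 8.35% of all genes tested. Their median log2 fold change was 0.16, and 0.075 without HFpEF replicate 3. Among 32 other folding enzymes and chaperones, 31 had a log2 fold change above 0 (96.9%, against 48.8% of all genes tested), with a median of 0.36 (0.15 without replicate 3). At an unadjusted p under 0.05, 8 were higher (25.0%, against 10.2%) and 0 lower (against 13.1%). Fkbp7 and Fkbp14, for ER prolyl isomerases, had 0.51 and 0.79, and Txndc5, for a disulfide isomerase, 0.85. Without HFpEF replicate 3 these were 0.38, 0.52 and 0.55, and the adjusted p was 0.0477 for Fkbp14 and 0.0251 for Txndc5 (limma).

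Among 41 genes of translocation and trafficking, 6 were higher (14.6%, against 10.2% of all genes tested) and 1 lower (2.44%, against 13.1%) at an unadjusted p under 0.05, with a median of 0.12 (0.059 without replicate 3). Sec61a1, for the pore of the translocation channel, had an FPKM of 5.15 to 6.03 in Chow and 8.11, 8.25 and 12.5 in HFpEF (log2 fold change 0.73, adjusted p = 0.119 from limma, and 0.0331 without replicate 3). Kdelr2, a receptor that returns escaped ER proteins, had 14.2 to 15.0 in Chow and 22.4, 21.5 and 34.9 in HFpEF (0.80, adjusted p = 0.119, and 0.0138 without replicate 3). Sec62, a translocation and ER-phagy factor, had 0.45 (0.41 without replicate 3). These 3 genes were above Chow in every HFpEF library.

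Among 31 other targets of Atf4 and Chop the split was even, with 6 higher and 6 lower at an unadjusted p under 0.05 (19.4% each, against 10.2% and 13.1% of all genes tested) and a median of 0.08 (−0.060 without replicate 3). The lower genes were Shmt2, Vldlr, Bcl2l11, Wars, Slc7a1 and Stc2, with log2 fold changes of −0.54 (Vldlr) to −0.36 (Slc7a1). In that order, they had −0.29, −0.35, −0.43, −0.27, −0.32 and −0.27 without HFpEF replicate 3. The genes with the lowest p were all higher. Nupr1, for a stress-induced chromatin protein, had an FPKM of 1.12 to 1.73 in Chow and 4.02, 3.08 and 7.80 in HFpEF (log2 fold change 1.60, adjusted p = 0.108 from limma, and 1.23 without replicate 3). Atf3, a stress-induced transcription factor gene that also belongs to the immediate early list, had 1.63 to 2.73 in Chow and 5.73, 3.37 and 13.6 in HFpEF (1.53, adjusted p = 0.155, and 1.00 without replicate 3). Pycr1, for a proline synthesis enzyme, had 1.81 (1.42 without replicate 3). These last 3 genes were above Chow in every HFpEF library.

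The 20 other degradation genes had a median of 0.03 (0.065 without replicate 3). At an unadjusted p under 0.05, 1 was higher (5.00%, against 10.2% of all genes tested) and 0 lower (against 13.1%). The gene was Edem3, at 0.38 (0.26 without replicate 3), and Herpud2 and Faf2 followed with 0.20 and 0.35 (0.22 for each without replicate 3). Of 16 other sensors and regulators, 2 were higher and 2 lower at an unadjusted p under 0.05. That is 12.5% each, near the 10.2% and 13.1% of all genes tested. Creb3l2, for an ER-anchored transcription factor of the Atf6 type, had an FPKM of 6.18 to 8.16 in Chow and 15.0, 14.9 and 10.6 in HFpEF, with replicate 3 the lowest HFpEF library. Its log2 fold change was 0.94 (adjusted p = 0.0989 from limma) and 1.11 without replicate 3, where the adjusted p was 0.0142. Wfs1, for an ER membrane protein that is known to restrain Atf6, had 28.6 to 32.0 in Chow and 24.8, 22.4 and 14.5 in HFpEF (−0.61, adjusted p = 0.164 from limma, and −0.38 without replicate 3). Map3k5 (Ask1), a kinase downstream of Ern1, had −0.46, with and without replicate 3, and was lower in every HFpEF library.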

How the data were processed

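Clean reads were aligned by the authors with HISAT2 and counted per gene with featureCounts. They deposited FPKM, 1 column per library, without stating the annotation or formula. GRCm38 is named in the submitters' processing notes. Of the 54532 identifiers, 54409 are in GENCODE release M21, which gave symbols, coordinates and exon lengths. FPKM multiplied by exon length was a whole multiple of 1 step for 96.0% to 96.2% of values above 0 (relative tolerance 1e-06). Read numbers came from these steps, rounded for the others (Syvn1 among the 35 genes). The steps implied an FPKM denominator of 14239712 reads for Chow replicate 1, where 15572774 were recovered. For HFpEF replicate 3 it was 19316914, where 15193420 were recovered. The denominator was therefore not the recovered read total.

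FPKM was scaled by the median of ratios (factors from 0.999 to 1.00), and log2(FPKM + 0.1) was fitted with limma 3.58.1 (R 4.3.3; eBayes with trend and robust) for 14227 genes (FPKM no lower than 0.5 in 3 or more libraries). Printed FPKM are as deposited, and fold changes are on the log2(FPKM + 0.1) scale, which understates changes of low genes. No covariate was used. The p-values set the difference between groups against the spread between 3 mice per group, with variances moderated across all genes tested. FPKM per library is given for the sensors and effectors, for genes with an unadjusted p under 0.05 and for the most abundant gene of each role; a few others were singled out after their values were seen. Of each other pathway list the 3 genes with the lowest p were named, and the 6 lower Atf4 and Chop targets after their values were seen. The genes and lists were chosen with earlier results of these data known. On simulated data of 14215 genes, 96 of 100 genes with a log2 fold of 3 and 36 of 100 with a log2 fold of 1 were called at an adjusted p under 0.05, as were 12 unchanged genes. The simulation gave every gene the same dispersion (0.05) and held no library that stood apart as HFpEF replicate 3 does. It therefore checks the fit only, and these recovery numbers do not carry over to the 6 libraries. Python 3.11.15, pandas 2.3.3 and scipy 1.17.1 were used. Alternatives are listed with their effects in the closing section.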

Additional observations from a re-analysis of the deposited data

How the results depend on the processing

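Across the 9 other settings of scaling, pseudocount, filter, variance model, count model and block, no gene of the 35 passed an adjusted p of 0.05. The lowest adjusted p lay between 0.0987 (voom on recovered reads) and 0.204 (no filter). The number higher at an unadjusted p under 0.05 fell from 6 to 3 with eBayes without trend or robust options. Over all genes tested, those with such a p in either direction went from 3323 to 3103 (limma). With quantile normalization 4 genes changed sign, to 0.12 for Hspa5, 0.010 for Sel1l, 0.091 for Canx and −0.094 for Trib3. No pairing of same-numbered libraries is stated. Their deviations from the group means had correlations of −0.041, −0.073 and −0.057, which do not show whether they were handled together. With the replicate block, the adjusted p (limma) was under 0.05 for 0 genes of the 35 and the unadjusted p for 7. Over all genes tested, 3004 had an unadjusted p under 0.05 with the block.

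Leaving out 1 library at a time gave 0 to 2 genes with an adjusted p under 0.05, 2 to 8 higher and 0 to 1 lower at an unadjusted p, 10 to 17 wholly above Chow and 3 to 5 wholly below. The count higher was 2 without Chow replicate 2 or Chow replicate 3, and 3 without HFpEF replicate 2, while 17 were wholly above Chow without HFpEF replicate 1. Over all genes tested, 3323 had an unadjusted p under 0.05 in either direction with all libraries (limma). That number was 1912 without Chow replicate 2, 2102 without Chow replicate 3, 3485 without HFpEF replicate 2 and 3533 without HFpEF replicate 1. Groups of 2 and 3 libraries separate more readily than 3 and 3, and shares over all genes were not computed for these separations. Medians ran from 0.097 to 0.34 for all genes of the list and by role from 0.12 to 0.34 (sensors and effectors), 0.055 to 0.22 (Xbp1 and Atf6 targets), 0.12 to 0.33 (Perk-Atf4 targets) and 0.033 to 0.51 (folding enzymes), with the lowest values without HFpEF replicate 3. The sign of 9 log2 fold changes turned in at least 1 of these fits, with ranges of −0.021 to 0.34 for Hsp90b1, −0.036 to 0.16 for Hyou1, −0.089 to 0.059 for Sel1l, −0.012 to 0.20 for Syvn1, −0.24 to 0.097 for Ppp1r15a, −0.25 to 0.29 for Trib3, −0.49 to 0.16 for Chac1, −0.048 to 0.23 for Calr and −0.061 to 0.42 for Pdia6. The gene lower at an unadjusted p under 0.05 was Atf6, without HFpEF replicate 2. Wholly below Chow were 5 genes without HFpEF replicate 2 or replicate 3, and the Perk-Atf4 median was 0.33 without Chow replicate 1. Over all genes tested, 14 passed an adjusted p of 0.05 with all libraries, 1188 without HFpEF replicate 3, 53 without HFpEF replicate 2, 33 without trend or robust options, 2 with the replicate block and 0 with voom (limma), where 3330 had an unadjusted p under 0.05.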
